A study of Mus musculus with 4 samples.

Results

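Lipid droplet and fatty acid genes were followed in the human cells of tumors grown in humanized mice. The group is a fixed list of 40 of the 36601 genes in both feature lists, named for the known roles of the genes by a rule that uses no measured value, though it was drawn up with earlier results of these data known. Each of the 40 symbols matched 1 row. MISTRG mice, which carry human M-CSF, GM-CSF and IL-3 genes, had been engrafted with human CD34+ hematopoietic stem cells, and MDA-MB-231 cells, a human triple-negative breast cancer line, were injected into the mammary fat pad. In both groups, live human CD45+ cells were sorted from the tumors. One group of 7 mice received the drug maraviroc in the drinking water, and the other group of 7 mice was left untreated. Engraftment followed sublethal irradiation of newborn pups, and the ages of the mice at tumor injection were not given in the sources used here. Mice were pooled with hashtag antibodies for 2 runs of droplet-based RNA-seq that reads transcripts from the 3' end (reaction 1 and reaction 2), with 4 untreated and 3 maraviroc-treated mice in reaction 1 and 3 untreated and 4 maraviroc-treated mice in reaction 2. Mouse stroma, adipocytes included, was left out by the human CD45 sort. Whether the mice shared a stem cell donor is not stated in the labels, so p-values measure the spread between these mice.

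Lipid droplets store neutral lipid, mostly triglyceride, under a coat of perilipins. A cell fills them with fatty acids that it takes up through scavenger receptors, or frees from lipoproteins, or makes from acetyl-CoA, and it empties them by lipolysis for oxidation in mitochondria. Macrophages are known to accumulate droplets where lipid supply is high or oxygen is low, and such foamy cells have been described in atherosclerotic plaques and in tumors.

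After filtering, 19871 cells were kept, with 5996882 to 14963342 UMIs per mouse. Reaction 1 was the shallower one, with a median of 4711 UMIs in a macrophage against 13097 in reaction 2, and 136 cell barcodes occurred in both reactions, 1.0% of the barcodes of reaction 2. Cells were assigned to classes by UMIs of marker genes, none of them a member of the list. The classes held 4845 macrophages, 2075 monocytes, 352 dendritic cells, 5868 lymphoid cells and 56 tumor cells. Mast cell markers marked 1.29% of the kept cells, 119 cells carried plasmacytoid dendritic cell markers, and 6300 others met no gate or conflicting gates, 5155 of them in reaction 1. Levels are UMIs of a gene per 1000000 UMIs of the same cells (CPM). A 3' library yields 1 tag per captured molecule whatever the transcript length, so CPM of different genes can be set side by side without a length term. Levels of the gate markers follow from the gates themselves and are no separate check of the classes. C1QA was at 2006 CPM in macrophages against 40.8 in monocytes, and S100A12 at 236 CPM in monocytes against 8.69 in macrophages. KRT18 was at 414 CPM in tumor cells. Of the 5 adipocyte markers, ADIPOQ, PLIN1 and CIDEC reached at most 0.431 CPM in any class, LEP reached 1.66 CPM and LIPE 4.82 CPM. Adipocytes of the host are mouse cells and the counts are of human genes. These levels therefore cannot show whether adipocyte RNA was present.

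PLIN2 (perilipin 2, the main droplet coat protein of non-adipose cells, ENSG00000147872) was the most abundant member in macrophages at 413 CPM, followed by MSR1 at 296, PPARD at 262 and ACSL1 at 176. Of the 40 members, 8 stood at 100 CPM or above in macrophages, 26 between 10 and 100 CPM and 6 below 10 CPM. The 6 lowest were FASN, FABP4, FABP3, LPL, DGAT2 and ELOVL6, the last at 0.863 CPM. Among macrophages, monocytes, dendritic cells and lymphoid cells, the pooled level was highest in monocytes for 15 members, in macrophages for 10, in dendritic cells for 9 and in lymphoid cells for 6.

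**Figure D1:**
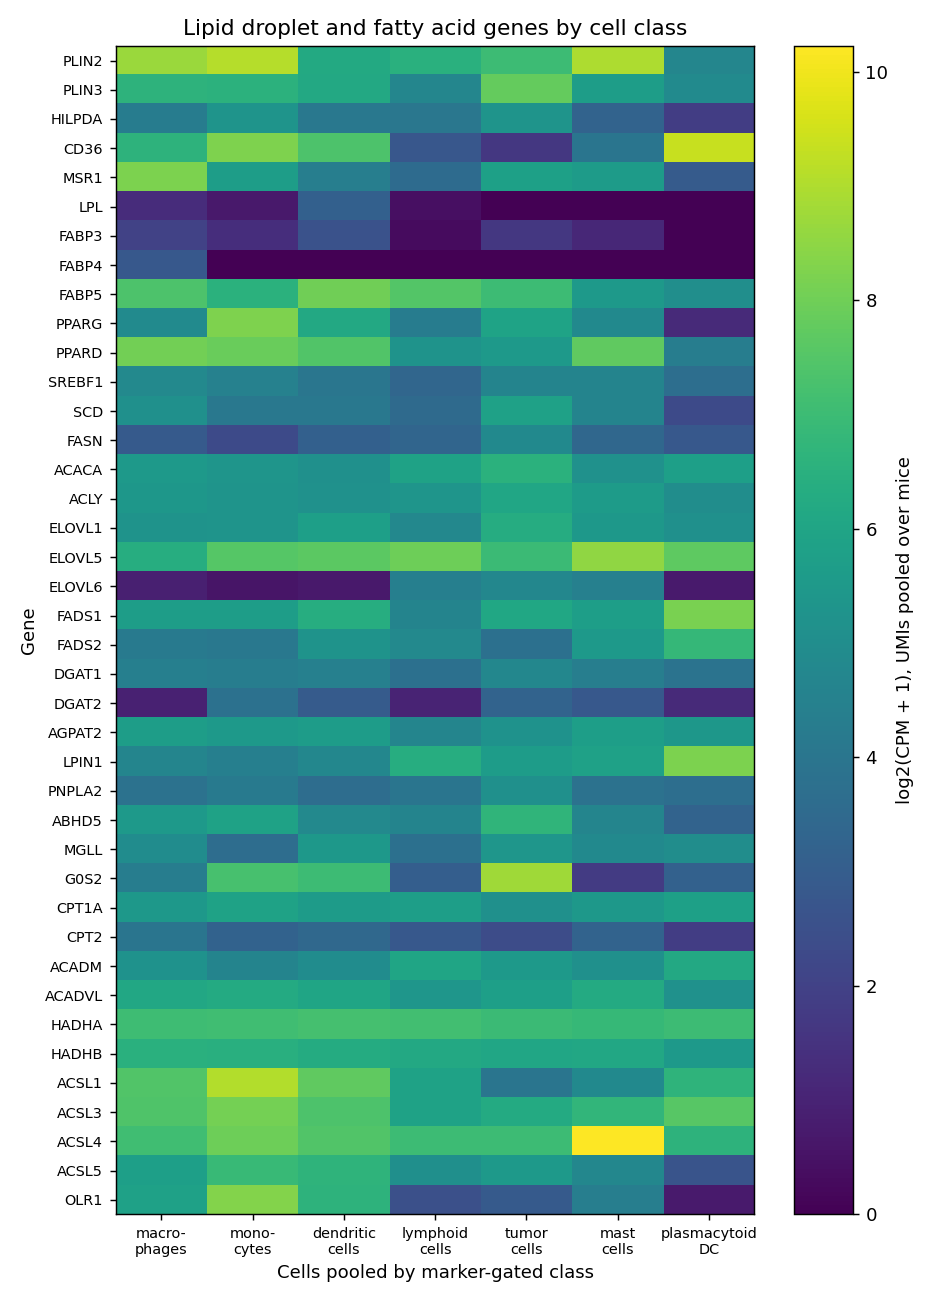
Pooled level of each of the 40 genes (rows) in 7 cell classes (columns), as log2(CPM + 1) by color. PLIN2 is bright in macrophages (413 CPM), monocytes (537 CPM) and mast cells (499 CPM), and ACSL4 is brightest in mast cells (1196 CPM).

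Macrophages were first compared with monocytes of the same mice (edgeR with a term for each mouse, n = 14 mice). MSR1 was higher in macrophages while CD36 and OLR1, the other scavenger receptors, were lower, and the 4 acyl-CoA synthetases, PPARG, DGAT2 and G0S2 were higher in monocytes. Of 37 members tested, 7 were higher in macrophages and 17 were lower at an adjusted p under 0.05, against 32.7% and 31.1% of all 12663 genes tested. The median log2 fold change was -0.12 over the members and 0.02 over all genes. LPL, FABP4 and ELOVL6 were too low to be tested.

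Of the droplet coat genes, PLIN2 and HILPDA were lower in macrophages and PLIN3 did not pass the test. PLIN2 ranged over 303 to 607 CPM (median 396) across mice in macrophages and over 198 to 1183 CPM (median 587) in monocytes, a small difference in favor of monocytes (log2 fold change -0.44, SE 0.13, adjusted p = 0.00346) seen in 11 of 14 mice. PLIN3, a perilipin that also binds newly forming droplets, was at 97.8 CPM in macrophages and 93.9 CPM in monocytes as median over mice, with overlapping ranges of 82.6 to 117 and 73.5 to 123 (log2 fold change -0.11, SE 0.06, adjusted p = 0.106). HILPDA, a hypoxia-inducible droplet protein that inhibits lipolysis, was lower in macrophages, with 12.48 to 31.5 CPM (median 19.4) against 11.5 to 105 CPM (median 38.4) (log2 fold change -1.15, SE 0.18, adjusted p = 5.14e-06).

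Among uptake genes, MSR1, scavenger receptor A for modified lipoproteins, was 5.13-fold higher in macrophages, with 172 to 402 CPM (median 299) against 28.9 to 94.6 CPM (median 47.2) in monocytes (log2 fold change 2.36, SE 0.12, adjusted p = 4.12e-15). No mouse had a monocyte level within the macrophage range. CD36, which imports long-chain fatty acids and oxidized LDL, went the other way, with 55 to 223 CPM (median 81.9) in macrophages and 246 to 516 CPM (median 275) in monocytes (log2 fold change -1.82, SE 0.13, adjusted p = 3.32e-12). OLR1, the receptor LOX-1 for oxidized LDL, was 5.76-fold lower in macrophages, at 34.1 to 82.1 CPM (median 59.9) against 112 to 449 CPM (median 317) (log2 fold change -2.53, SE 0.11, adjusted p = 6.88e-16). Both were lower in macrophages than in monocytes of the same mouse in 14 of 14 mice. LPL, which frees fatty acids from lipoproteins, stayed at 0 to 14.3 CPM (median 0.526) in macrophages and at 0 to 3.01 CPM (median 0) in monocytes.

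The 3 largest differences in favor of monocytes were those of DGAT2, PPARG and G0S2. PPARG, the nuclear receptor that drives lipid uptake and storage genes, was 11.2-fold lower in macrophages, at 20.5 to 45.8 CPM (median 25.8) against 197 to 426 CPM (median 319) (log2 fold change -3.48, SE 0.11, adjusted p = 4.56e-19). DGAT2, which adds the last acyl chain of triglyceride, was 14.6-fold lower, at 0.308 to 3.27 CPM (median 0.612) against 9.64 to 26.8 CPM (median 13) (log2 fold change -3.87, SE 0.22, adjusted p = 6.16e-14). G0S2, an inhibitor of the lipase ATGL, stood at 5.96 to 55.6 CPM (median 15.4) and 83.6 to 374 CPM (median 126) (log2 fold change -3.13, SE 0.16, adjusted p = 3.81e-15). For each of the 3 genes, named because their differences were largest, the ranges over mice did not overlap. The share of all genes with ranges apart was not counted, here or for other genes of the class and state comparisons. PPARD, the sister receptor, did not pass the test, with 259.7 and 240.3 CPM (log2 fold change -0.02, SE 0.05, adjusted p = 0.749). SREBF1, the master regulator of fatty acid synthesis, had medians of 27.7 and 22.1 CPM (log2 fold change 0.24, SE 0.11, adjusted p = 0.0573).

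**Figure D2:**
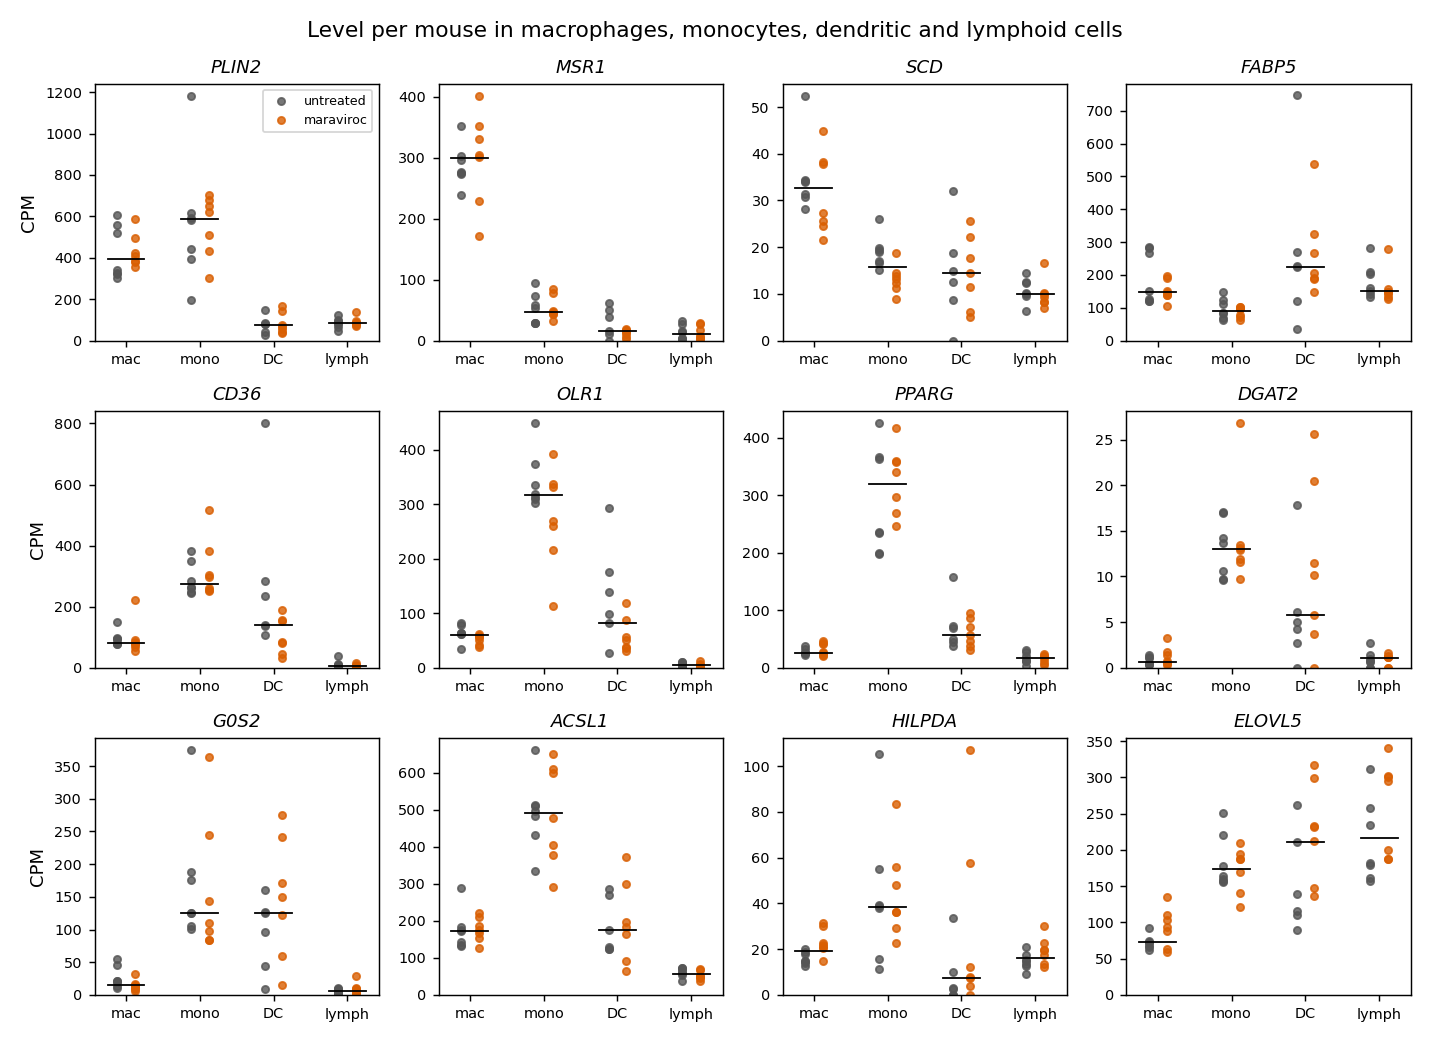
CPM per mouse (points; grey untreated, orange maraviroc) in macrophages (mac), monocytes (mono), dendritic cells (DC) and lymphoid cells (lymph) for 12 genes, with the median over mice as a line. MSR1 and SCD are highest in macrophages (medians 299 and 32.7 CPM), while OLR1, PPARG, DGAT2 and ACSL1 have their highest median in monocytes (317, 319, 13 and 490.3 CPM).

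Synthesis genes differed in direction. SCD, the stearoyl-CoA desaturase that makes monounsaturated fatty acids, had 21.5 to 52.4 CPM (median 32.7) in macrophages and 8.93 to 26.1 CPM (median 15.8) in monocytes (log2 fold change 0.92, SE 0.10, adjusted p = 2.78e-08). FASN, fatty acid synthase, was low in both, with medians of 6.37 and 4.1 CPM, and higher in macrophages of 13 of 14 mice (log2 fold change 0.64, SE 0.20, adjusted p = 0.00773). ELOVL5, which elongates polyunsaturated chains, was 2.34-fold lower in macrophages (log2 fold change -1.23, SE 0.08, adjusted p = 1.92e-12). FADS1, a front-end desaturase, did not pass the test at 51.9 and 50.4 CPM (log2 fold change -0.14, SE 0.09, adjusted p = 0.172).

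All 4 acyl-CoA synthetases on the list, which activate fatty acids by joining them to CoA, were lower in macrophages than in monocytes. ACSL1 had 126 to 288 CPM (median 174) against 292 to 663 CPM (median 490.3) (log2 fold change -1.57, SE 0.08, adjusted p = 1.92e-14). ACSL4, which prefers arachidonic acid, had 122 to 171 CPM (median 128) against 195 to 285 CPM (median 250.8) (log2 fold change -0.95, SE 0.06, adjusted p = 2.22e-13). The log2 fold changes of ACSL5 and ACSL3 were -1.17 and -0.81. Among oxidation genes, CPT1A, the gatekeeper of mitochondrial import, was lower in macrophages (log2 fold change -0.55, SE 0.07, adjusted p = 5.03e-07), and CPT2 and ACADM, which act after it, were higher with log2 fold changes of 0.66 and 0.45. MGLL, which splits monoglycerides, was higher in macrophages (log2 fold change 1.29, SE 0.15, adjusted p = 2.48e-08), with 30.5 against 9.93 CPM. PNPLA2, the gene of ATGL, the first triglyceride lipase, was slightly lower, at 14 against 16.3 CPM (log2 fold change -0.41, SE 0.12, adjusted p = 0.00355). FABP5, a cytosolic fatty acid carrier, was higher in macrophages of 14 of 14 mice, at 104 to 286 CPM (median 147) against 61.9 to 148 CPM (median 89.7) (log2 fold change 0.74, SE 0.13, adjusted p = 1.86e-05).

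Members without a paragraph of their own filled the middle of the scale. In macrophages, the medians over mice were 41.9 CPM for ACLY, which supplies acetyl-CoA, 40.6 for ACACA, 37.4 for ELOVL1, an elongase of saturated chains, and 52.3 for AGPAT2, which makes phosphatidic acid. DGAT1, the second triglyceride-forming acyltransferase, stood at 19.7 CPM, LPIN1 at 24.5 and FADS2 at 15.1. The oxidation enzymes ACADVL, HADHA and HADHB stood at 70.9, 134 and 89.1 CPM. Of these 10, ACADVL and HADHA were slightly lower than in monocytes (log2 fold changes -0.24 and -0.12) and the other 8 did not pass the test. In this comparison PLIN3 had the higher median CPM in macrophages but a negative fitted log2 fold change. A change as small as that of HADHA may therefore depend on the scaling of the fit.

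Against dendritic cells (13 mice with at least 10 cells of both classes), macrophages carried far more PLIN2 and MSR1 and less DGAT2, G0S2 and ELOVL5. Of 37 members tested, 7 were higher and 14 lower in macrophages, against 24% and 20.3% of all genes. PLIN2 was 5.39-fold higher in macrophages, with 26.7 to 167 CPM (median 76.6) in dendritic cells (log2 fold change 2.43, SE 0.17, adjusted p = 3.91e-11). MSR1 was 13.9-fold higher (log2 fold change 3.79, SE 0.24, adjusted p = 6.08e-12), and SCD followed with a log2 fold change of 0.94. Both PLIN2 and MSR1 were higher in macrophages of 13 of 13 mice. The 3 largest differences in favor of dendritic cells were those of DGAT2 (-2.93), G0S2 (-2.71) and ELOVL5 (-1.25).

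Dendritic cells were not uniform. The 352 cells comprised 261 closest to the type 2 markers, 61 closest to the type 1 markers and 30 closest to the mature markers. Type 1 and mature cells were too few per mouse to be tested, with at least 10 in 1 and 0 mice. Type 2 cells reached 10 in 8 mice but were not tested by themselves. CD36 was at 216 CPM (95% exact Poisson interval 201 to 232) in type 2 cells and at 7.87 CPM (95% exact Poisson interval 3.16 to 16.2) in type 1 cells. In mature cells MGLL was at 392 CPM (95% exact Poisson interval 330.3 to 462), against 15.3 CPM in type 2 cells, and G0S2 at 428 CPM (95% exact Poisson interval 363 to 500.1). FABP5 was at 400.1, 224 and 260.3 CPM in type 1, type 2 and mature cells. These intervals pool cells over mice and cover counting error only.

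Lymphoid cells held less of most members. Of 38 tested over 14 mice, 28 were higher in macrophages, where 38.7% of all 14139 genes were higher, and 5 were lower, where 43% of all genes were lower. The median log2 fold change was 1.06 over the members and -0.06 over all genes. The 3 largest differences in favor of macrophages were those of MSR1 (4.9971), CD36 (4.22) and OLR1 (3.87). PLIN2 reached 45.6 to 137 CPM (median 86.5) in lymphoid cells (log2 fold change 2.56, SE 0.08, adjusted p = 7.94e-16). ELOVL6, which elongates palmitate to stearate, was 19.9-fold lower in macrophages, at 12.8 to 39.2 CPM (median 20.9) in lymphoid cells (log2 fold change -4.31, SE 0.25, adjusted p = 6.76e-12). LPIN1, a phosphatidate phosphatase of triglyceride synthesis, ELOVL5, ACADM and FADS2 were the other members that the fit called higher in lymphoid cells, with log2 fold changes of -1.45, -1.23, -0.58 and -0.42. Members not called so by the fit also had higher pooled CPM in lymphoid cells. As percent of the macrophage level in reactions 1 and 2, they were FASN (154% and 137%), ACACA (145% and 126%) and CPT1A (119% and 125%). PNPLA2 (113% and 110%) and FABP5 (105% and 114%) were closer to equal. HADHA also turned with the scaling: its fitted log2 fold change, which uses TMM scaling, was 0.22, while its CPM was higher in macrophages of only 3 of 14 mice. The same scaling applies to every member, so the counts above may depend on it for members near equal CPM. ACLY, for one, stood in lymphoid cells at 92.3% and 97.5% of its macrophage level.

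RNA of other cells, free in the droplets, may add to these levels, and C1QA was used as a rough gauge of it. C1QA, a gene that lymphoid cells should lack, stood in lymphoid cells at 5.2% of its macrophage level in reaction 1 and at 1.31% in reaction 2. For MSR1 the same values were 7.32% and 1.37%, little above those of C1QA. FABP4 alone of the 40 members was at or below the highest C1Q ratio in both reactions. Its macrophage level of 14.9 CPM in reaction 1 rested mainly on 1 cell, described below, and in reaction 2 it was 0.172 CPM. The FABP4 ratio is therefore no pattern of the 2 classes. For PLIN2 the lymphoid level was 21.2% and 21.8% of the macrophage level, above the C1Q ratios in both reactions. C1QA was a gate marker of macrophages, and PLIN2 was also abundant in monocytes and mast cells. The C1Q ratios therefore need not bound the free RNA of PLIN2, whose part in its lymphoid level was not tested. Median depth was 5832.5 UMIs in lymphoid cells and 8933 in macrophages.

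FABP4 and LPL were concentrated in single cells. FABP4, the adipocyte and macrophage carrier, had 300 UMIs in all kept cells, and 291 of them (97%) came from 1 TREM2-positive macrophage of an untreated mouse in reaction 1. The other 9 UMIs were spread over 7 cells. That cell was also the one with the most LPL (41 of 158 UMIs in all cells) and the most FABP5 (217 UMIs), and it held 60 UMIs of PLIN2 and 37 of CD36. It had 28817 UMIs and 5547 genes in all and carried 17 UMIs of C1QA and 13 of TREM2, while ADIPOQ and PLIN1 were at 0 and 0. As counts of human genes, these zeros cannot show whether RNA of mouse adipocytes was present. Whether it was a doublet of cells with the same hashtag was not tested. A dendritic cell of reaction 2 held another 37 UMIs of LPL, and 59 cells held any LPL. FABP5 was spread over 7860 cells, with 0.929% of its UMIs in the top cell, and FABP3 had 289 UMIs in 179 cells and 20 in the highest cell.

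Macrophage states were then compared with the macrophages that met no state gate (other macrophages), in the same mice. In reaction 1, median depth was 3952 UMIs in other macrophages and 3874 (cycling) to 9074 (LYVE1-positive) in the 6 states tested. For reaction 2 these values were 12823 and 10938 (hypoxic) to 15357 (cycling). The part of depth in the results was not tested. Hypoxic macrophages, gated on the glucose transporter SLC2A1 and 5 other hypoxia genes, had the largest rise of PLIN2 and HILPDA among the 6 states tested. PLIN2 rose 4.47-fold, with 211 to 566 CPM (median 330.0) in other and 781 to 2349 CPM (median 1358) in hypoxic macrophages, and was higher in 13 of 13 mice (log2 fold change 2.16, SE 0.10, adjusted p = 2.56e-17). The ranges over mice did not overlap. HILPDA rose 9.91-fold, with 4.36 to 17.1 CPM (median 10.9) against 6.26 to 212 CPM (median 87.7), and was higher in 12 of 13 mice (log2 fold change 3.31, SE 0.23, adjusted p = 9.8e-13). HILPDA is itself hypoxia-inducible, so its rise is no separate check of a gate made of hypoxia genes. How much of the rise follows from the gate was not tested. SCD rose 4.46-fold in 13 of 13 mice, with 13 to 39.7 CPM (median 28.4) against 64.6 to 250.2 CPM (median 114) (log2 fold change 2.16, SE 0.15, adjusted p = 2.35e-12).

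**Figure D3:**
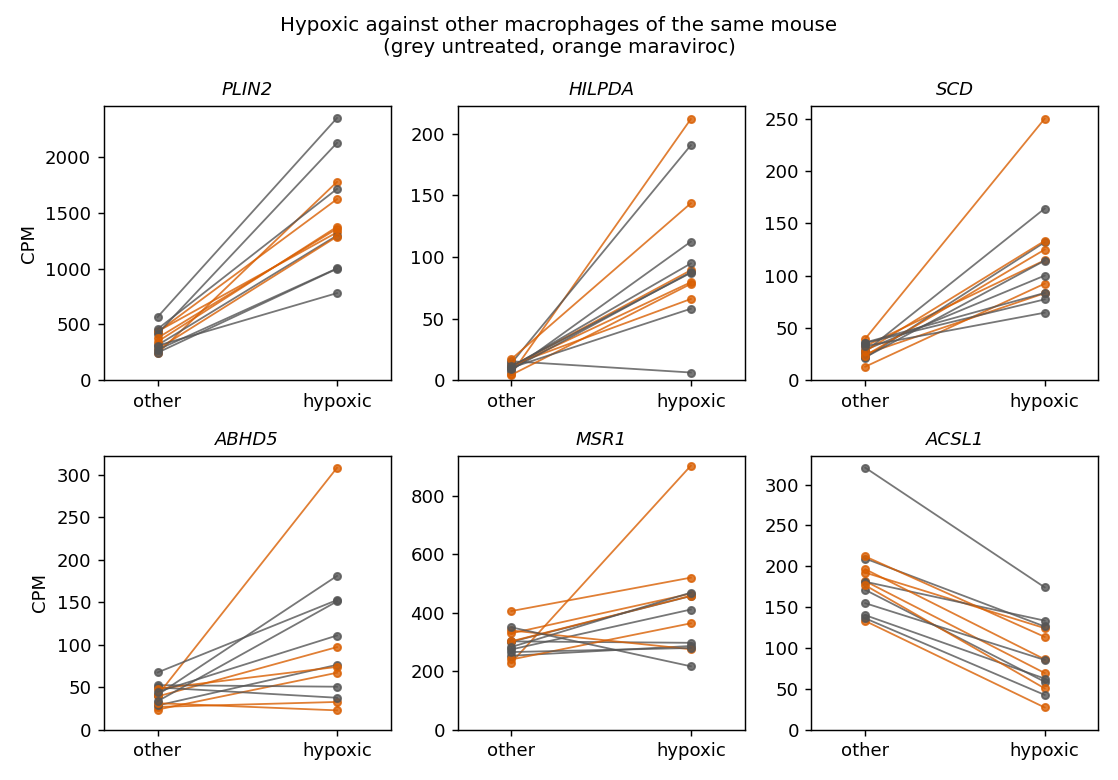
CPM in other and hypoxic macrophages of the same mouse, joined by lines (13 mice; grey untreated, orange maraviroc), for 6 genes. PLIN2 and SCD rise in every line, HILPDA in 12 of 13 mice, and ACSL1 falls in every line to a median of 85.4 CPM.

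Further members that rose in hypoxic macrophages were ABHD5, the coactivator of ATGL (log2 fold change 1.4977, SE 0.21, adjusted p = 2.6e-06), FABP3 (1.63), MSR1 (0.58), SREBF1 (0.56), PPARD (0.55), FABP5 (0.40) and ACSL3 (0.37). The change of FABP3 rests on few UMIs, its pooled level being 3.02 CPM over all macrophages. PLIN3 did not pass the test, with medians of 86.7 and 89.9 CPM (log2 fold change -0.07, SE 0.12, adjusted p = 0.749), nor did CD36 (log2 fold change -0.65, SE 0.24, adjusted p = 0.0515). The 4 members that fell were ACSL1, FADS2, ACACA and CPT1A. ACSL1 fell in 13 of 13 mice, with 133 to 321 CPM (median 181) against 27.2 to 174 CPM (median 85.4) (log2 fold change -0.96, SE 0.12, adjusted p = 5.57e-07). FADS2, the first desaturase of polyunsaturated fatty acids, ACACA, which makes malonyl-CoA, and CPT1A, the import gene, had log2 fold changes of -0.98, -0.53 and -0.51. In all, 10 of 35 members tested rose and 4 fell, against 11.7% and 9.26% of all 9910 genes. The median log2 fold change over the members was -0.02, close to -0.05 over all genes. Each reaction by itself gave PLIN2 log2 fold changes of 2.26 and 2.05. Reactions 1 and 2 called 7 and 6 members of 35, and 1112 of 9204 and 854 of 10241 genes. Of 7 monocyte markers, 6 were lower and 1 higher in hypoxic than in other macrophages, with FCN1 at 30.8 against 105 CPM. Their summed level had medians of 2703 and 2901 CPM over mice. The part of these markers in the result was not tested.

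MT1G-high macrophages, gated on 3 metallothionein genes, had 4 higher members (7 mice). HILPDA (log2 fold change 1.62, SE 0.36, adjusted p = 0.0108), G0S2 (log2 fold change 1.51, SE 0.33, adjusted p = 0.0111), FABP5 (log2 fold change 1.23, SE 0.14, adjusted p = 1.74e-05) and PLIN2 (log2 fold change 0.64, SE 0.15, adjusted p = 0.0169) were higher than in other macrophages. FABP5 stood at 205 to 457 CPM (median 269.5), against 127 CPM in other macrophages, and was higher in 7 of 7 mice. PLIN2 was at 285 to 811 CPM (median 512), below its hypoxic median of 1358. The 4 higher members of 34 tested stood against 2.52% of all genes higher, and 0 members were lower (unadjusted p under 0.05 for 10 members in either direction) against 2.87% of all genes. By DESeq2, 3 members and 684 of 9514 genes were called. Monocyte markers moved with this state, 6 of 7 being higher and 1 (CSF3R) lower than in other macrophages. Their summed level was 5300.4 to 8343 CPM (median 6157) over 7 mice, against 1419 to 5272 CPM (median 2901) in other macrophages over 14 mice. FCN1 was at 238 against 105 CPM. The part of these markers in the result was not tested. SCD did not pass the test (log2 fold change -0.17, SE 0.27, adjusted p = 0.792).

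TREM2-positive macrophages, gated on the lipid receptor TREM2 and meeting no other state gate, differed in few members (12 mice). TREM2-carrying macrophages that met another state gate, hypoxic and MT1G-high cells among them, were left out of this set. FABP5 was 2.05-fold higher, at 163 to 1012 CPM (median 224), and higher in 12 of 12 mice (log2 fold change 1.04, SE 0.14, adjusted p = 1.06e-05). The highest of these values belonged to the mouse with the FABP4-rich cell and was 367 CPM without that cell. MSR1 was higher as well (log2 fold change 0.42, SE 0.09, adjusted p = 0.00364). ACSL1 and OLR1 were lower, with log2 fold changes of -0.55 and -0.55. PLIN2 did not pass the test, at 198 to 653 CPM (median 388) (log2 fold change 0.17, SE 0.08, adjusted p = 0.233). These 2 higher and 2 lower members of 36 tested stood against 4.01% and 4.35% of all genes. Of 7 monocyte markers, 6 were lower and 1 higher in this state than in other macrophages, with FCN1 at 29.5 against 105 CPM. Their summed level had medians of 2755 and 2901 CPM over mice. The part of these markers in the result was not tested.

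LYVE1-positive macrophages had high CD36 and low PLIN2 (5 mice). CD36 was 7.73-fold higher, at 430.2 to 925 CPM (median 659) against 48.6 to 152 CPM (median 86.3) in other macrophages (log2 fold change 2.95, SE 0.18, adjusted p = 1.01e-09). MGLL was 4.62-fold higher (log2 fold change 2.21, SE 0.23, adjusted p = 1.2e-06). Lower were G0S2 (-4.43), OLR1 (-4.23), FADS2 (-1.97), SCD (-1.95), MSR1 (-1.60), PLIN2 (-1.54), FADS1 (-1.28) and FABP5 (-1.06). PLIN2 was at 61.5 to 201 CPM (median 118), and MSR1 at 33.5 to 126 CPM (median 106). All 10 changes had the same direction in 5 of 5 mice. They made 2 higher and 8 lower of 33 members tested, against 7.32% and 8.33% of all genes. Monocyte markers were lower here, 7 of 7 of them, at a summed level of 550.0 to 3291 CPM (median 1547) over 5 mice. In other macrophages it was 1419 to 5272 CPM (median 2901) over 14 mice. FCN1 was at 11.7 CPM and S100A12 at 0. The part of these markers in the result was not tested. Only these 113 cells met the gate, and 3 of the 5 mice were untreated.

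**Figure D4:**
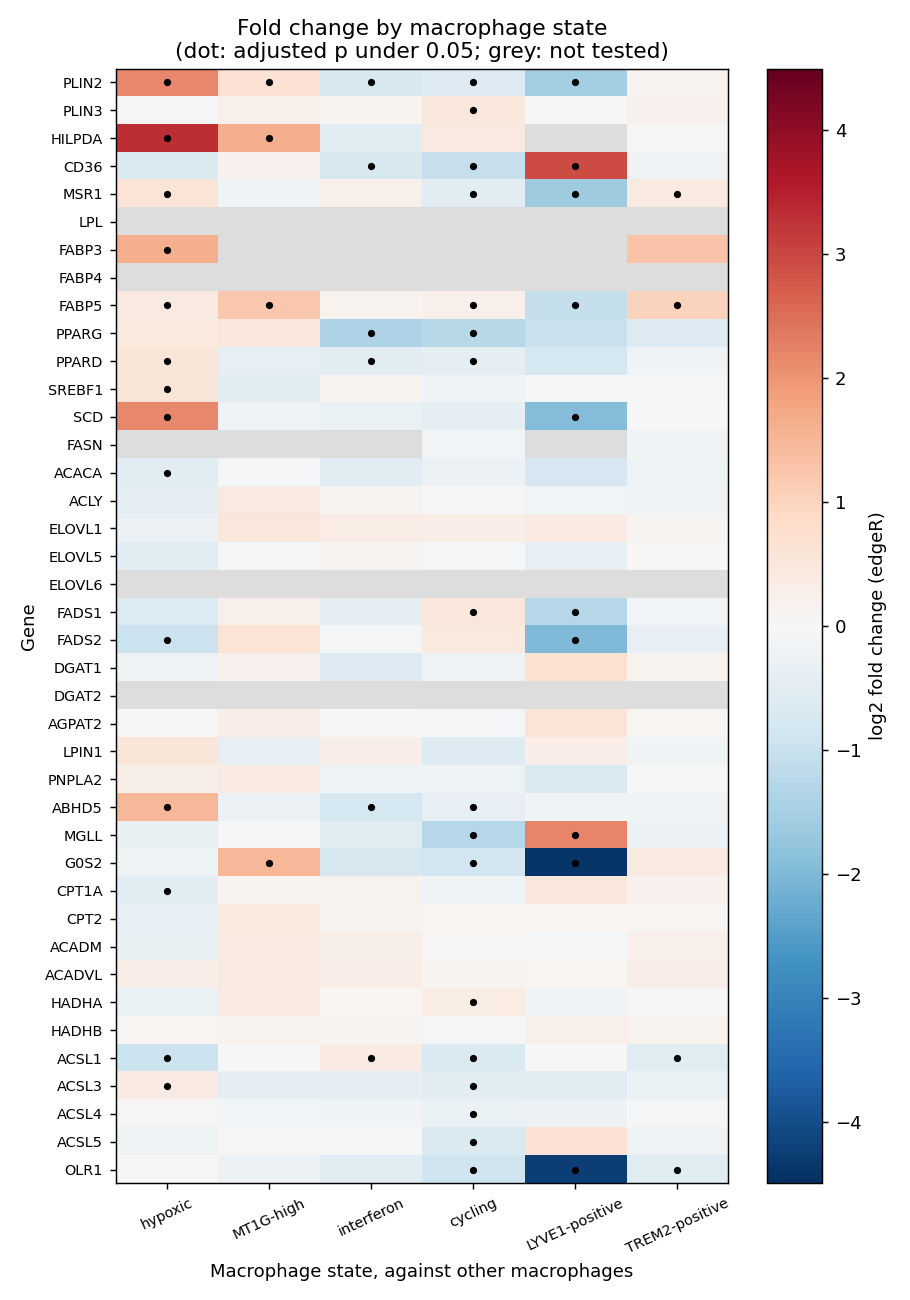
log2 fold change of each gene (rows) in 6 macrophage states (columns) against other macrophages of the same mice, from blue (lower) to red (higher); dots mark adjusted p under 0.05 and grey marks genes too low to be tested. The deepest red is HILPDA in hypoxic macrophages (3.31) and the deepest blue is G0S2 in LYVE1-positive macrophages (-4.43).

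Interferon macrophages, gated on CXCL9, CXCL10 and CXCL11, had lower PPARG (log2 fold change -1.39, SE 0.28, adjusted p = 0.000646), ABHD5 (-0.80), PLIN2 (-0.73), CD36 (-0.73) and PPARD (-0.50). PLIN2 stood at 74.1 to 482 CPM (median 178). ACSL1 alone of the members was higher (log2 fold change 0.39, SE 0.10, adjusted p = 0.0105), in 10 of 13 mice. This was 1 higher and 5 lower member of 34 tested over 13 mice, against 7.06% and 6.79% of all genes. Of 7 monocyte markers, 2 were higher and 5 lower in this state, and their part in the result was not tested. Cycling macrophages had 4 higher and 13 lower members of 35, against 13.4% and 18.2% of all genes. The 3 largest decreases there were those of MGLL (-1.29), PPARG (-1.25) and CD36 (-1.02), and the largest increases those of FADS1 (0.52), PLIN3 (0.49) and HADHA (0.33), a subunit of the mitochondrial trifunctional protein. The log2 fold change of PLIN2 was -0.59. In cycling macrophages 7 of 7 monocyte markers were lower, at a summed level of 1128 to 6739.6 CPM (median 2351), and their part in the result was not tested.

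Inflammatory macrophages and tumor cells were too few per mouse to be tested. In the 55 inflammatory macrophages, PLIN2 was at 643 CPM (95% exact Poisson interval 581 to 710.2), FABP5 at 315 CPM (95% exact Poisson interval 272 to 363) and G0S2 at 186 CPM. Of the 114 UMIs of G0S2, 76 came from 1 cell, and 29 of the 55 cells came from 1 mouse. In the 56 tumor cells, which the CD45 sort should have left out, G0S2 was at 437 CPM (95% exact Poisson interval 379 to 501), PLIN3 at 225 CPM (95% exact Poisson interval 184 to 272) and PLIN2 at 127 CPM (95% exact Poisson interval 97.1 to 164). CD36 and LPL were at 2.12 and 0 CPM there. A count of 0 leaves room for a few UMIs, so a low LPL level there was not detectable at this depth.

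Whether maraviroc moved these genes was tested over the 7 untreated and 7 treated mice, with a term for the reaction. In macrophages, 0 of 35 members and 0% of 11655 genes passed by edgeR at an adjusted p under 0.05, and DESeq2 also called 0 members and 0 genes. Unadjusted p was under 0.05 for 3 members and for 3.9% of all genes by edgeR (455 genes), and for 347 genes by DESeq2. The median log2 fold change was -0.01 over the members and 0.00 over all genes. By single reaction, the members' median was -0.10 in reaction 1 (8 of 36 positive) and 0.10 in reaction 2 (28 of 36 positive). Over all genes these medians were -0.01 and 0.01. With both reactions in the fit, FABP3, LPL, FABP4, DGAT2 and ELOVL6 were too low to be tested.

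The member with the lowest unadjusted p was HILPDA. Its lowest, median and highest levels in macrophages were 12.48, 15 and 20.01 CPM in untreated mice and 14.8, 21.8 and 31.5 CPM in maraviroc-treated mice (log2 fold change 0.54, SE 0.16, adjusted p = 1). Against the untreated median of their own reaction, 6 of 7 treated mice were higher. In reaction 1 the untreated mice had 14, 14.9, 17.8 and 20.01 CPM and the treated mice 14.8, 29.9 and 31.5 CPM. In reaction 2 they had 12.48, 15 and 18.7 CPM and 20.5, 21.1, 21.8 and 22.9 CPM. Treated mice were thus mostly higher, and within reactions the groups overlapped in the first only. The share of all genes with groups apart within a reaction was not counted, here or for the genes below. Groups of 3 and 4 mice can be apart by chance. Hypoxic cells made 3.78% to 9.23% of macrophages in untreated mice (median 6.15%) and 4.38% in the lowest and 41 of 328 macrophages in the highest treated mouse (median 7.5%). In macrophages without a state, HILPDA had 7.83, 10.8 and 15.4 CPM in untreated mice and 4.36, 11 and 17.1 CPM in maraviroc-treated mice, as lowest, median and highest, so the medians were close. The part of the hypoxic share in the difference was not tested. In lymphoid cells, HILPDA had 8.97, 14.8 and 20.8 CPM in untreated mice and 12.4, 19.4 and 29.9 CPM in maraviroc-treated mice (log2 fold change 0.53, SE 0.16, adjusted p = 1).

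The other pair of lowest unadjusted p belonged to ACSL3 and ELOVL5. ACSL3 had 125, 157 and 182 CPM in untreated mice and 148, 173 and 209 CPM in maraviroc-treated mice, as lowest, median and highest (log2 fold change 0.19, SE 0.09, adjusted p = 1). ELOVL5 had 61.4, 71.9 and 92.5 CPM in untreated mice and 58.7, 93 and 135 CPM in maraviroc-treated mice (log2 fold change 0.28, SE 0.13, adjusted p = 1), and its log2 fold change was -0.02 in reaction 1 and 0.54 in reaction 2. Against the untreated median of their own reaction, 6 of 7 treated mice were higher for ACSL3 and 5 of 7 for ELOVL5. For ELOVL5 the groups overlapped in reaction 1 and were apart in reaction 2, at 65.8 to 92.5 CPM in untreated and 93 to 135 CPM in treated mice.

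Droplet coat and uptake genes had overlapping groups when both reactions were pooled, and several differed in direction between them. PLIN2 had lowest, median and highest levels of 303, 339 and 607 CPM in untreated mice and 356, 406 and 585 CPM in maraviroc-treated mice (log2 fold change 0.13, SE 0.12, adjusted p = 1). PLIN3 had 82.6, 97.4 and 104 CPM in untreated mice and 85.3, 98.2 and 117 CPM in maraviroc-treated mice (log2 fold change 0.05, SE 0.08, adjusted p = 1). Against the untreated median of their own reaction, 5 of 7 treated mice were higher for PLIN2 and 3 of 7 for PLIN3. For PLIN2 the log2 fold change was -0.0689 in reaction 1 and 0.319 in reaction 2, where untreated mice had 303 to 327 CPM and treated mice 356 to 422. CD36 had 77.6, 92.8 and 151 CPM in untreated mice and 55, 77.7 and 223 CPM in maraviroc-treated mice (log2 fold change -0.04, SE 0.28, adjusted p = 1), with 1 treated mouse of reaction 2 far above the rest. Its log2 fold change was -0.707 in reaction 1 and 0.563 in reaction 2. In reaction 1 the groups were apart, at 80.4 to 151 CPM in untreated and 55 to 77.7 CPM in treated mice. MSR1 had 238, 276 and 352 CPM in untreated mice and 172, 305 and 402 CPM in maraviroc-treated mice (log2 fold change 0.06, SE 0.13, adjusted p = 1). The MSR1 groups were apart in reaction 1, at 238 to 304 and 331 to 402 CPM, and the log2 fold change was 0.34 in reaction 1 and -0.209 in reaction 2. OLR1 had 34.1, 62.8 and 82.1 CPM in untreated mice and 37.3, 57 and 62.2 CPM in maraviroc-treated mice (log2 fold change -0.22, SE 0.16, adjusted p = 1). For OLR1 the log2 fold change was -0.51 in reaction 1 and 0.0489 in reaction 2, and 1 of 7 treated mice was above the untreated median of its own reaction. FABP5 had 121, 150.5 and 286 CPM in untreated mice and 104, 144 and 197 CPM in maraviroc-treated mice (log2 fold change -0.21, SE 0.22, adjusted p = 1), with log2 fold changes of -0.81 in reaction 1 and 0.384 in reaction 2. FABP3 ranged over 1.3 to 6.37 CPM in untreated and 1.64 to 4.05 CPM in treated mice. LPL and FABP4 stayed at or below 1.44 and 0.308 CPM in treated mice, and their untreated maxima of 14.3 and 99.3 CPM were those of the mouse with the FABP4-rich cell.

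Regulators, synthesis and storage genes did not pass the test either. PPARG had 22, 25.3 and 37.6 CPM in untreated mice and 20.5, 26.4 and 45.8 CPM in maraviroc-treated mice (log2 fold change 0.23, SE 0.20, adjusted p = 1), as lowest, median and highest. SREBF1 had 17.7, 24.8 and 29.9 CPM in untreated mice and 23.1, 28.2 and 33.7 CPM in maraviroc-treated mice (log2 fold change 0.18, SE 0.10, adjusted p = 1). The SREBF1 groups overlapped, and 5 of 7 treated mice were above the untreated median of their own reaction. SCD had 28.3, 34 and 52.4 CPM in untreated mice and 21.5, 27.4 and 44.9 CPM in maraviroc-treated mice (log2 fold change -0.13, SE 0.17, adjusted p = 1). FASN had 5.24, 5.8 and 8.28 CPM in untreated mice and 4.2, 6.46 and 8.18 CPM in maraviroc-treated mice (log2 fold change -0.00, SE 0.19, adjusted p = 1). Neither desaturase nor synthase differed beyond the spread between mice. FADS1 had 27, 48.6 and 59 CPM in untreated mice and 38.7, 55 and 67.1 CPM in maraviroc-treated mice (log2 fold change 0.14, SE 0.15, adjusted p = 1). G0S2 had 10.1, 20.6 and 55.6 CPM in untreated mice and 5.96, 13.7 and 31.2 CPM in maraviroc-treated mice (log2 fold change -0.68, SE 0.40, adjusted p = 1). The spread of G0S2 was wide, its highest untreated mouse being 55.6 CPM. PNPLA2 had 10.9, 14.9 and 17.7 CPM in untreated mice and 11.1, 12.8 and 15.3 CPM in maraviroc-treated mice (log2 fold change -0.08, SE 0.13, adjusted p = 1). DGAT2 stayed between 0.308 and 3.27 CPM in all mice.

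The 6 oxidation genes on the list had coefficients of variation over mice from 4.85% (HADHA) to 17.7% (CPT2). CPT1A had 35.1, 39.4 and 44.7 CPM in untreated mice and 39, 40.9 and 57.3 CPM in maraviroc-treated mice (log2 fold change 0.11, SE 0.09, adjusted p = 1), as lowest, median and highest. ACSL1 had 132, 172 and 288 CPM in untreated mice and 126, 176 and 221 CPM in maraviroc-treated mice (log2 fold change -0.04, SE 0.16, adjusted p = 1). ACSL4 had 122, 128 and 139 CPM in untreated mice and 125, 138 and 171 CPM in maraviroc-treated mice (log2 fold change 0.11, SE 0.07, adjusted p = 1). For all 3, the groups overlapped over both reactions. Of the remaining members tested in macrophages, the largest log2 fold changes were those of ABHD5 (-0.26), DGAT1 (-0.22) and MGLL (-0.17) among those lower in treated mice, and of FADS2 (0.24), LPIN1 (0.16) and ACSL5 (0.10) among those higher.

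The other classes gave the same count. In monocytes, dendritic cells, lymphoid cells, hypoxic, MT1G-high and interferon macrophages, 0% of the genes tested and 0 members passed by edgeR, which was the one tool run there. Unadjusted p was under 0.05 for 1 of 35 members and 333 of 9311 genes in monocytes, 3 of 26 members and 346 of 5922 genes in dendritic cells, 2 of 36 members and 494 of 12090 genes in lymphoid cells, 1 of 19 members and 168 of 4365 genes in hypoxic macrophages, 2 of 23 members and 282 of 4209 genes in MT1G-high macrophages and 2 of 21 members and 191 of 4897 genes in interferon macrophages. Over the 7 classes, macrophages included, this came to 14 of 195 member tests (7.18%) and 4.33% of all gene tests. The hypoxic, MT1G-high and interferon cells are also part of the macrophages, and all classes come from the same mice. These tests are therefore not independent, and the 2 shares were not compared by a test. The lowest adjusted p of any member was 0.255, for PPARD in interferon macrophages (log2 fold change -1.08, SE 0.24, adjusted p = 0.26), where its lowest, median and highest levels were 147, 269 and 366 CPM in untreated mice and 51.3, 155 and 177 CPM in maraviroc-treated mice. PLIN2 in hypoxic macrophages had 781, 1297 and 2349 CPM in untreated mice and 1287, 1366 and 1777 CPM in maraviroc-treated mice (log2 fold change 0.10, SE 0.18, adjusted p = 1). In MT1G-high macrophages, PLIN2 was at 285, 398 and 512 CPM in untreated mice and 516, 581 and 811 CPM in maraviroc-treated mice, as lowest, median and highest of 4 and 3 mice (log2 fold change 0.76, SE 0.26, adjusted p = 0.67). The groups did not overlap for 2 of 23 members tested there, PLIN2 and PPARG, against 6.84% of all genes tested. These mice had at least 10 and at most 44 such cells each.

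Treatment and reaction were then crossed in macrophages, since several members moved in opposite directions in the reactions. ACSL5 had 48, 54.6, 55.6 and 57.6 CPM in untreated and 36.5, 44.6 and 47.1 CPM in treated mice of reaction 1, and 44, 50.3 and 54.6 CPM and 55.8, 65.8, 73.4 and 81.3 CPM in reaction 2. Treated mice were all lower in the first and all higher in the second. The difference of the log2 fold changes, reaction 2 minus reaction 1, was 0.88, SE 0.21, adjusted p = 0.359 by edgeR, and by DESeq2 it was 0.89, SE 0.23, adjusted p = 0.0235. FABP5 had 150.5, 266, 282 and 286 CPM in untreated and 138, 144 and 149.7 CPM in treated mice of reaction 1, so every treated mouse was lower. In reaction 2 it had 121, 122 and 126 CPM and 104, 138, 190.3 and 197 CPM, with treated mice on both sides of the untreated ones. The difference was 1.19, SE 0.30, adjusted p = 0.42 by edgeR and 1.20, SE 0.31, adjusted p = 0.0235 by DESeq2. Over all 12036 genes, edgeR called 0% (1160 genes at an unadjusted p under 0.05) and 0 of 36 members, while DESeq2 called 29 genes with these 2 members among them. By edgeR, unadjusted p was under 0.05 for 7 of 36 members and 9.64% of all genes. The median difference was 0.30 over the members, with 29 of 36 positive, and 0.01 over all genes. Whether the list as a whole differed between reactions was not tested.

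**Figure D5:**
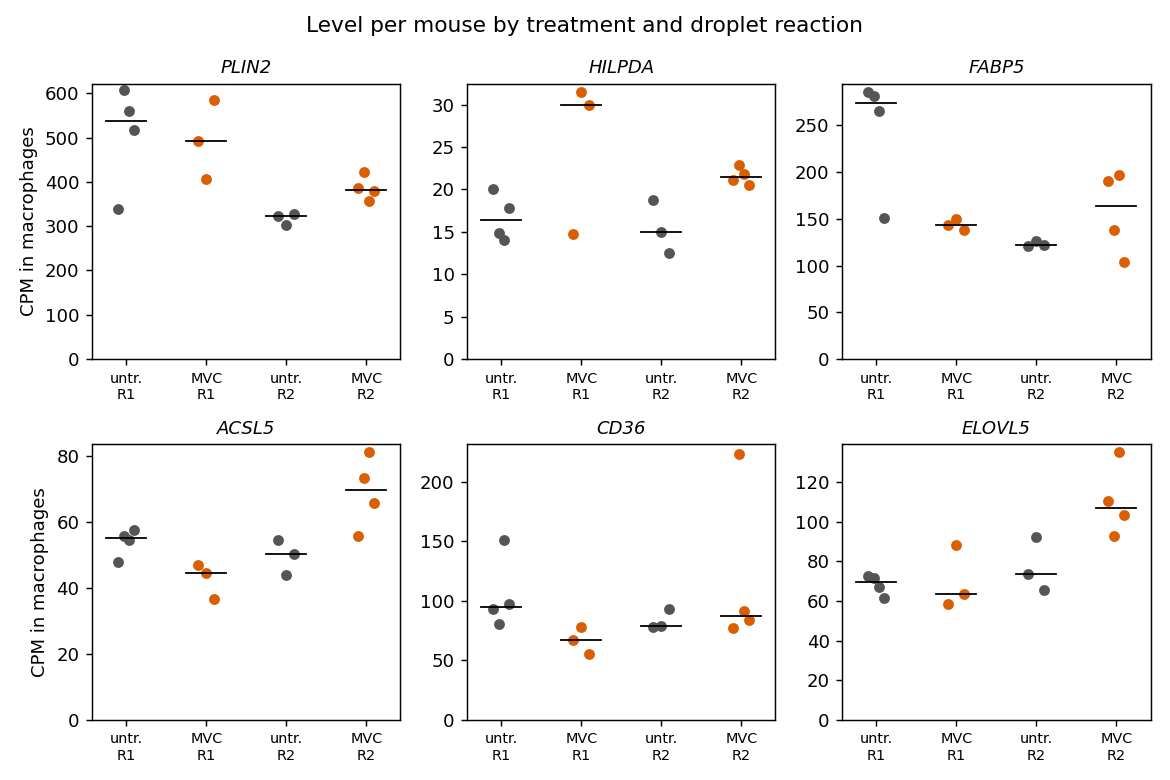
CPM in macrophages of each mouse by treatment (untr., untreated; MVC, maraviroc) and reaction (R1, R2) for 6 genes, with group medians as lines. ACSL5 is lower in all treated mice of reaction 1 and higher in all of reaction 2, and HILPDA has medians of 15 CPM in untreated and 21.8 CPM in treated mice over both reactions.

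A second list of 94 further lipid-related genes was counted in the same comparisons. It held other perilipins, fatty acid transporters, acyltransferases, thioesterases and oxidation enzymes, and also genes such as RXRA, INSIG1, RAB7A, AUP1 and VCP. Against monocytes, macrophages had 28 higher and 18 lower of 63 tested, where 32.7% and 31.1% of all genes were called. Against lymphoid cells they had 36 higher and 20 lower of 66, where 38.7% and 43% of all genes were called. Hypoxic macrophages had 8 higher and 3 lower of 50, against 11.7% and 9.26% of all genes. The higher ones were RAB7A, AGPAT4, INSIG1, GPAT4, RXRA, LIPA, ANGPTL4 and PPARA. The lower ones were GPAT3, DAGLB and VCP, and no perilipin was among those called. Cycling macrophages had 8 higher and 12 lower of 51, against 13.4% and 18.2% of all genes. LYVE1-positive macrophages had 5 higher and 2 lower of 49, against 7.32% and 8.33% of all genes. For TREM2-positive macrophages it was 2 higher and 1 lower of 52, against 4.01% and 4.35%. Interferon macrophages had 2 higher and 7 lower of 50, against 7.06% and 6.79%. In MT1G-high macrophages 0 were higher and 1 lower of 50, against 2.52% and 2.87%. For maraviroc in macrophages, 0 of 58 passed by edgeR, against 0% of all genes.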

How the data were processed

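Human CD45+ cells of 14 tumors were profiled in 2 reactions of 10x 3' RNA-seq. The deposited files hold counts: UMI counts per gene and barcode, not normalized, made by the authors with Cell Ranger 9.0.1 against the human genome GRCh38, with hashtag counts as further rows. The submitters' processing notes also name Seurat 5.1.0. Mice and treatments were read from the hashtag names. Hashtags were called with HTODemux (Seurat 5.3.0, quantile 0.99). Cells with more than 600 and at most 6000 genes, MT- genes under 12.5% and a single hashtag were kept, 11917 of 29120 barcodes in reaction 1 and 7954 of 13582 in reaction 2, where 10174 and 1961 barcodes within these limits were hashtag doublets. No other doublet caller was run, and cells with both lymphoid and myeloid markers were left out of the classes. Classes were gated on UMIs of marker genes per 10000 UMIs, with thresholds set after the marker distributions were seen and before member levels by class were seen. A macrophage needed at least 20 per 10000 from macrophage markers, a monocyte 30 from monocyte markers, and a hypoxic macrophage 10 from hypoxia markers. UMIs were summed per mouse and class (at least 10 cells per mouse, at least 3 mice) and fitted with edgeR 4.0.16 (R 4.3.3; TMM, filterByExpr, quasi-likelihood test, Benjamini-Hochberg adjustment over all genes tested), with a reaction term for treatment and a mouse term for classes. DESeq2 1.42.0, no expression filter, other cell and hashtag limits, doubled gates, single reactions and left-out mice were alternatives. The scripts were tested on data with known changes. Tables used Python 3.11.15, numpy 2.4.6, pandas 2.3.3 and scipy 1.17.1. Values over mice were given for 21 members chosen by role, for members past the treatment test and for the 3 with the lowest unadjusted p for treatment in macrophages; otherwise the 3 largest changes in each direction were named, and further members were named after their values were seen. The 40 genes and all lists were chosen with earlier results of these data known. Intervals cover counting error only.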

Additional observations from a re-analysis of the deposited data

Results flagged for a closer look

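In macrophages, 9 of 46 groups checked (23 genes in each treatment) held a mouse far from the others of its group. The groups share the same mice and mix both reactions, so this count cannot be set against a chance rate. One untreated mouse of reaction 1 (mouse 3) was far above the other 6 for CD36 at 151 CPM (next 97.4), LPL at 14.3 CPM (next 3.54) and FABP4 at 99.3 CPM (next 0.489), and this mouse held the cell with 291 UMIs of FABP4 and 41 of LPL. One maraviroc-treated mouse of reaction 2 (mouse 2) was far above the other 6 for CD36 at 223 CPM (next 91.7), G0S2 at 31.2 CPM (next 16) and CPT1A at 57.3 CPM (next 45.4). LYVE1-positive cells made 11.3% of its macrophages, the highest share of the 14 mice, and their part in its CD36 level was not tested. Single mice also stood apart for SCD (52.4 CPM in untreated mouse 2 of reaction 1, next 34.5), ACSL1 (288 CPM in untreated mouse 1 of reaction 2, next 185) and ELOVL5 (92.5 CPM in untreated mouse 2 of reaction 2, next 73.6). For ACSL5, all treated mice of reaction 1 were below and all treated mice of reaction 2 above the untreated mice of the same reaction. The share of all genes with such a pattern was not counted. The test of the difference for ACSL5 gave an adjusted p of 0.359 by edgeR and 0.0235 by DESeq2. Outside the classes compared, plasmacytoid dendritic cells held FADS1 at 288 CPM, FADS2 at 113 CPM and LPIN1 at 292 CPM, where the highest upper bounds in macrophages, monocytes, dendritic and lymphoid cells were 90.1, 42.5 and 85 CPM. Mast cells held ACSL4 at 1196 CPM, where that bound was 255.01 CPM.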

How the results depend on the processing

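Of 133 member calls between classes and states, 0 changed direction in 765 alternative values and 651 of those values were still called. Counts of called members were within 1.5 times the reported ones except in the following. With gates at double the marker share they were 6 in place of 10 for LYVE1-positive and 1 in place of 4 for MT1G-high macrophages. They were 8 in place of 17 for cycling and 3 in place of 6 for interferon macrophages. In the same order, called genes numbered 751, 22, 1711 and 691, in place of 1469, 513, 3404 and 1379. Reaction 1 by itself gave 7 of 14 for hypoxic, 2 of 4 for MT1G-high and 3 of 6 for interferon macrophages. For macrophages against dendritic cells it gave 12 of 21. Called genes were 1112, 115, 694 and 2297 there, in place of 2080, 513, 1379 and 5136. Reaction 2 by itself gave 6 for hypoxic, 1 for MT1G-high, 3 for interferon and 1 of 4 for TREM2-positive macrophages. Called genes were 854, 37, 454 and 73 there, in place of 2080, 513, 1379 and 894. These alternatives hold fewer cells or mice. Without a filter on low counts, TREM2-positive macrophages had 8 called members in place of 4, FABP4 and LPL among them. Called genes there were 1038 in place of 894. Maraviroc in macrophages then gave 5 genes by edgeR with 1 member, FABP4 (log2 fold change -5.71, adjusted p = 0.036), whose level is that of 1 cell. By DESeq2, an alternative added after seeing the data, the difference between reactions called 2 members and 29 genes in place of 0 and 0. For maraviroc in macrophages, reaction 1 by itself turned ELOVL5 to a log2 fold change of -0.0182 and PLIN2 to -0.0689, and reaction 2 by itself turned FABP5 to 0.38 and CD36 to 0.56. CD36 was 0.0147 without a reaction term and -0.34 to 0.11 with 1 mouse left out. Leaving out any of the 14 mice gave 0 called members in macrophages. Single-reaction fits could not be made for LYVE1-positive macrophages in reaction 1, nor for treatment in dendritic cells (reaction 2), MT1G-high (both) and interferon macrophages (reaction 2), hypoxic macrophages could not be fitted with doubled gates, and tumor cells and inflammatory macrophages could not be fitted at all. No paired analysis was possible because the treatment groups share no mouse, litter or replicate number in the labels. Counts of 0 to 3 UMIs limit LPL, FABP4, DGAT2 and ELOVL6 in single mice.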

Other observations

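Cells outside the main classes had lipid gene profiles of their own, given as pooled levels with no test. The mast cells, which make arachidonic acid products, held ACSL4 at 1196 CPM (95% exact Poisson interval 1122 to 1274) and PLIN2 at 499 CPM (95% exact Poisson interval 452 to 549.9), at a median depth of 2195 UMIs. The 119 plasmacytoid dendritic cells held CD36 at 653 CPM (95% exact Poisson interval 613 to 696), above its 302 CPM in monocytes, with FADS1 at 288 CPM (95% exact Poisson interval 261 to 316) and LPIN1 at 292 CPM (95% exact Poisson interval 266 to 321). PLIN2 was at 25.2 CPM there. This set was completed by at least 2 UMIs of LILRA4, a condition added after values were seen.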
